A study of Homo sapiens with 3 samples.

Results

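The tubulin genes examined here are TUBA1A, TUBA1B, TUBA1C and TUBA4A (alpha), TUBB, TUBB2A, TUBB2B, TUBB4B and TUBB6 (beta) and TUBG1 (gamma), chosen by gene name. Of these 10 genes, 9 were listed in every table (3 alpha, 5 beta and 1 gamma), each by a single transcript, among 8812 transcripts listed in all tables. TUBA1A was listed in none. All 9 were among the 5680 transcripts whose mean read number in the coding sequence (CDS) reached the minimum that the study set for RRTS, although TUBA4A and TUBB6 had only 109 to 273 CDS reads in a library.

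Alpha and beta tubulin form the heterodimers that polymerise into microtubules, and gamma tubulin nucleates microtubules at the centrosome and other organising centres. Vertebrates carry several genes, called isotypes, for each class, and the proteins differ mainly in their acidic C-terminal tails, which extend from the microtubule surface and carry most tubulin modifications. Cells adjust tubulin mRNA to the pool of free dimers by degrading mRNAs that are being translated when dimers are in excess.

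In ribosome profiling, stretches of mRNA that ribosomes shield from nuclease (ribosome-protected fragments, RPFs) are sequenced. The cells were HEK293T, an embryonic kidney line carrying the SV40 large T antigen, either untreated (Untreated A and Untreated B, 2 libraries) or exposed to G418 at 500 µg/mL over 24 hours (G418 A, 1 library). G418, an aminoglycoside, makes ribosomes decode less accurately, and the comparison asks where ribosomes lay on each mRNA with and without it. The study describes its libraries as biological replicates, and values marked ± are the mean with the SD of those 2 libraries.

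The reads behind the normalised values numbered 5857230 to 9477972 per library, of which 3838477 to 6288190 lay in the CDS of listed transcripts. Of 7 markers of HEK293T cells, 5 were listed in all tables (VIM, NEFM, NEFL, ENO2 and GATA3), PAX2 was listed in Untreated B alone and CDH2 in no table. Of 7 markers of blood, liver or fibroblast cells, COL1A1 was listed in all tables and CD74 in the untreated tables. The tables list no transcript below about 1 RPKM (reads per kilobase of transcript, scaled to a common library total). A gene that is not listed may thus still be present at a lower density. The study also left out transcripts that overlap a neighbouring gene or whose untranslated regions overlap a pseudogene. A gene may therefore be unlisted at any density.

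The sequences around the normal termination codon (NTC) are shown because readthrough differed widely among these transcripts and the stop codon with its next nucleotide is known to affect it. Each run below holds the last 15 nt of the CDS, the stop codon and the 12 nt that follow, with the stop codon and the next nucleotide in capitals, taken from GENCODE 44 transcripts. The 4 capitals matched the signal given in the deposited tables for all 9 listed transcripts.
TUBA1C: gagggtgaagagtatTAACctgtgtgctgt
TUBA4A: gatgagggagaagaaTAAAgcagctgcctg
TUBB: gccgaagaggaggccTAAGgcagagccccc
TUBB4B: gaggaggaggtggccTAGAgccttcagtca
TUBB2A: ggcgaggacgaggctTAAAaacttctcaga
TUBB2B: ggcgaggacgaggcgTAGAtgcccccgcga
TUBG1: ggcacccaggagcagTGAGtcccccaggac

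The TUBA1C reading frame ends in a tyrosine codon (TAT), the residue that is removed and re-added in the detyrosination cycle of alpha tubulin, whereas TUBA4A ends in GAA, a glutamate codon. The GA-rich runs before the beta stop codons encode the acidic tail. TUBB2A and TUBB2B, which were 98.2% identical over the CDS nucleotides, end in different stop codons, UAA and UAG.

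In the hg38 genome the stop codons lie in the last exon of each transcript. That of TUBA1C lies at chr12:49273225-49273227 (plus strand, exon 4 of 4). The TUBA4A stop codon lies at chr2:219250352-219250354 (minus strand, exon 4 of 4). Among the beta genes, TUBB has its stop codon at chr6:30724395-30724397 (plus strand, exon 4 of 4) and TUBB4B at chr9:137243554-137243556 (plus strand, exon 4 of 4). TUBB2A and TUBB2B are neighbours on the minus strand, with stop codons at chr6:3153863-3153865 and chr6:3224751-3224753, each in exon 4 of 4. The TUBG1 stop codon lies at chr17:42615039-42615041 (plus strand, exon 11 of 11).

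TUBB6 needs a separate description. The study kept the transcript with the 3′-most stop codon of each gene, which for TUBB6 is a short isoform with a CDS of 348 nt ending at chr18:12337181-12337183 (plus strand, exon 4 of 4). The full-length CDS of 1341 nt ends earlier, at chr18:12326128-12326130, and shares 277 nt with the short one. TUBB6 values here therefore describe the shared 5′ part of the CDS and the stop codon of the short isoform, UGAA with its next nucleotide, not that of the full-length protein, UAGU.

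Near-identical copies limit what these values can say about a single isotype. A read was allowed to align to many positions and only 1 alignment was kept, so reads from a stretch held by several genes could be credited to another copy. Fragment-sized windows of 30 nt were looked up in all annotated transcripts, with a window for each position counted by the study. Of the TUBA1B CDS windows, 13.2% were held by no other gene, since 60.8% occurred in TUBA1A, 60.6% in TUBA1C and 43.8% in the pseudogene TUBAP2. The share held by no other gene was 26.5% for TUBA1C, 15.7% for TUBB2A and 18.2% for TUBB2B, and the last 2 shared 76.7% of their windows with each other. TUBB, at 42.8%, shared 48.1% of its windows with the pseudogene TUBBP1. TUBG1, at 51.9%, shared 44.2% with TUBG2. TUBB4B (74.6%), TUBA4A (79.5%) and the short TUBB6 transcript (99.0%) were mostly free of shared windows.

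The 3′UTR sequences are far less alike. In the region used to measure readthrough, 100% of the windows were held by no other gene in 8 of the 9 transcripts. The exception was TUBB, where 41.3% were, the remainder being shared with TUBBP1. Readthrough reads of TUBA1B, TUBA1C, TUBB2A and TUBB2B can thus be credited to a gene more firmly than the CDS reads that they are divided by. Alpha and beta coding sequences were 54.1% to 55.8% identical between TUBA1B and the beta members. Exchange of reads between the listed members of a class therefore does not change the read sum of that class. TUBA1A and the pseudogenes lie outside these sums, as do TUBB4A and TUBB3, which held 19.5% and 17.9% of the TUBB2A windows. Exchange of reads with such genes can change a sum.

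**Figure D1:**
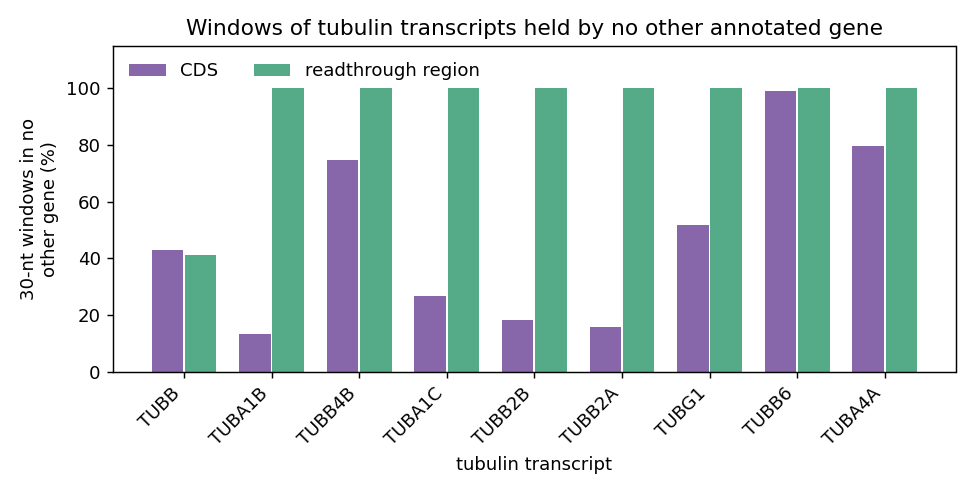
Percentage of 30-nt windows (y axis) that occur in no other annotated gene, for the CDS and the readthrough region of each listed tubulin transcript (x axis). CDS bars range from 13.2% (TUBA1B) to 99.0% (TUBB6), whereas every readthrough bar stands at 100% but that of TUBB, at 41.3%.

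Density is given as RPKM over the CDS, which corrects for length and so permits comparison between genes. TUBB, a ubiquitous beta isotype, had the highest density, at 1551 RPKM (Untreated A), 1757 (Untreated B) and 1356 (G418 A). TUBA1B, a widely expressed alpha isotype, had 1048 RPKM (Untreated A), 1161 (Untreated B) and 990 (G418 A). TUBB4B, a beta isotype also found in cilia, had 871, 929 and 704 RPKM in the same order of libraries. In each of these 3 genes the G418 library was the lowest.

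TUBA1C, another common alpha isotype, had 827 RPKM (Untreated A), 841 (Untreated B) and 740 (G418 A). TUBB2B, an isotype of developing neurons, had 162, 171 and 149 RPKM in that order. Its neighbour TUBB2A had 96.2, 119 and 105 RPKM. G418 A was below both untreated libraries for TUBA1C and TUBB2B and between them for TUBB2A.

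TUBG1, the main gamma tubulin, had 103 RPKM (Untreated A), 107 (Untreated B) and 112 (G418 A). Densities of the short TUBB6 transcript were 73.2, 91.4 and 95.5 RPKM in that order. TUBA4A, an alpha isotype abundant in platelets and brain, had the lowest density, at 25.2, 17.6 and 11.5 RPKM. G418 A was above both untreated libraries for TUBG1 and TUBB6 and below both for TUBA4A, whose untreated libraries already differed by 0.52 on the log2 scale.

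In order of untreated mean density the transcripts were TUBB (1654 ± 146), TUBA1B (1105 ± 79.9), TUBB4B (900.0 ± 40.4), TUBA1C (834 ± 10.1), TUBB2B (167 ± 6.02), TUBB2A (108 ± 16.3), TUBG1 (105 ± 2.94), TUBB6 (82.3 ± 12.9) and TUBA4A (21.4 ± 5.39 RPKM, n = 2 each). Between neighbours in this order only TUBB2A and TUBG1 overlapped in the untreated libraries, with a difference of 2.52 RPKM. TUBB4B exceeded TUBA1C in 2 of 3 libraries, and in G418 A the order of the pair was turned. The first 4 transcripts held 90.5% to 91.5% of all tubulin CDS reads in a library.

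**Figure D2:**
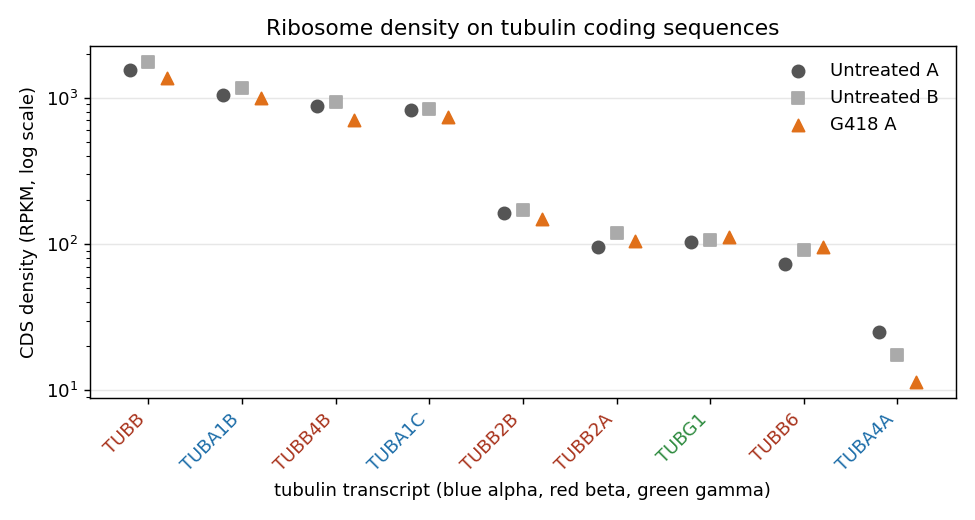
CDS density in RPKM (y axis, log scale) of the 9 listed tubulin transcripts (x axis, in order of untreated mean) with 1 point for each library (the 2 untreated ones and G418 A). TUBB, TUBA1B, TUBB4B and TUBA1C lie between 704 and 1757 RPKM in every library, and the other 5 at or below 171 RPKM.

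The change with G418 was small for most members. Relative to the untreated mean, the log2 density of G418 A was -0.29 for TUBB, -0.16 for TUBA1B, -0.35 for TUBB4B, -0.17 for TUBA1C and -0.17 for TUBB2B. It was -0.04 for TUBB2A, 0.09 for TUBG1, 0.21 for TUBB6 and -0.90 for TUBA4A. The median over the 9 members was -0.17, beside 0.07 over all 5680 transcripts. From these RPF libraries alone, fewer ribosomes per mRNA and less of the mRNA cannot be told apart.

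G418 A lay below both untreated libraries for 6 of the 9 members, beside a background of 27.9% of all transcripts, and above both for 2 of 9, beside 46.3%. TUBA4A was the 1 member at least 0.5 lower on the log2 scale than each untreated library, a size found for 1.21% of all transcripts. A rise of that size was found for 0 members and 6.30% of all transcripts. No member was lower by at least 1 than the untreated mean (0.0880% of all transcripts) or higher by as much (1.06%).

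The densest transcripts of the tables are given for comparison with the leading tubulins. Among the 252 transcripts with an untreated mean of at least 500 RPKM, a limit chosen after the values were seen, the median log2 density change was -0.08 and G418 A lay below both untreated libraries for 49.2%. TUBB and TUBB4B were lower than most of these, with 51 of the 252 more negative than TUBB and 38 more negative than TUBB4B.

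The CDS counts were tested with edgeR's quasi-likelihood test over all 5680 transcripts. In it the lone G418 library is taken to vary like the untreated ones (1 residual degree of freedom). The prior degrees of freedom were estimated as infinite, so the spread came from all transcripts together and not from each transcript's own libraries. At a Benjamini-Hochberg adjusted p of 0.05, 0 of 9 members were called higher, beside 1.90% of all transcripts (108), and 0 of 9 were called lower, beside 0.722% (41). At an unadjusted p of 0.05, 2 members were lower, beside 5.51% of all transcripts, and 0 were higher, beside 8.03%. DESeq2 also called 0 members (of 7 to which it gave an adjusted p, beside 0.489% of all such transcripts higher and 0.831% lower). At an unadjusted DESeq2 p of 0.05, 3 of 9 members were lower, beside 177 of all 5680 transcripts, and 0 were higher, beside 216.

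The members nearest to the threshold were TUBA4A, with an edgeR log2 change of -0.95 (SE 0.34, adjusted p = 0.107), and TUBB4B, with -0.42 (SE 0.18, adjusted p = 0.252). TUBB followed at -0.36 (SE 0.18, adjusted p = 0.376). The remaining 6 members had edgeR adjusted p-values of at least 0.611. TUBA4A was lower in G418 A than in both untreated libraries, but its 109 reads there make it the least precisely measured of these.

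**Figure D3:**
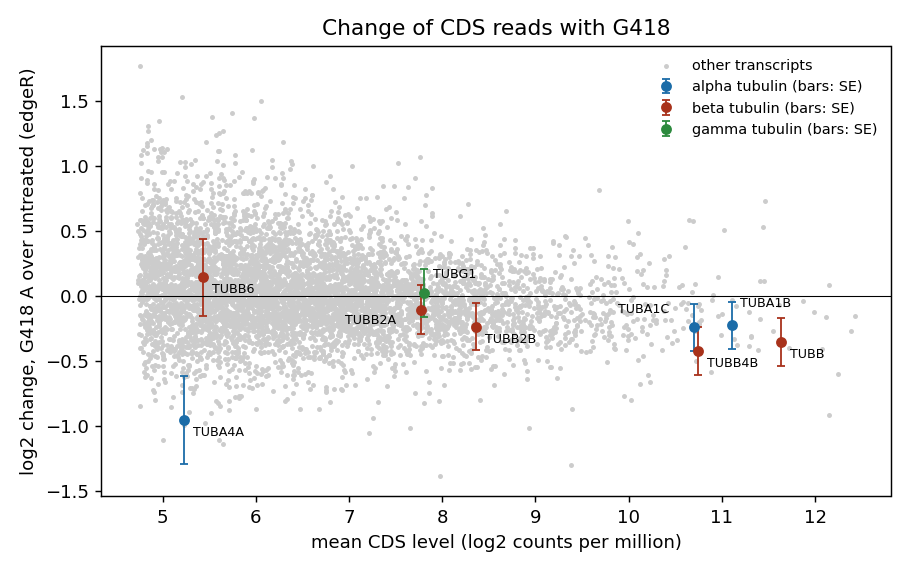
Log2 change of CDS counts in G418 A over the untreated libraries (y axis, edgeR) against mean level in log2 CPM (x axis), for the 9 tubulin transcripts (coloured points with SE bars) and all other transcripts tested (grey). The tubulins range from -0.95 (TUBA4A) to 0.14 (TUBB6) and none passed the adjusted threshold.

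Summed by class, alpha density was 1900.0 RPKM (Untreated A), 2020 (Untreated B) and 1741 (G418 A). Beta density was 2754, 3068 and 2409 RPKM in the same order. Over the 3 alpha and 5 beta transcripts listed, beta thus exceeded alpha in every library, and both classes were lowest in G418 A. TUBA1A lies outside the alpha sum, so reads credited to it are not counted there. The alpha to beta ratio was 0.690 (Untreated A), 0.658 (Untreated B) and 0.723 (G418 A).

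Relative to the untreated mean, the log2 change in G418 A was -0.17 for the alpha sum and -0.27 for the beta sum, and the ratio in G418 A was 1.07 times its untreated mean of 0.674 ± 0.0223 (SD, n = 2). The alpha share of alpha and beta CDS reads was 41.6% (Untreated A, exact 95% binomial interval 41.1 to 42.1), 40.6% (Untreated B, 40.2 to 41.0) and 43.0% (G418 A, 42.5 to 43.5). These intervals cover counting error only, and the alpha to beta ratio was not tested between conditions. Of listed CDS reads, all members together took 0.940% (Untreated A), 1.01% (Untreated B) and 0.814% (G418 A).

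Genes that act on tubulin were described in the same edgeR fit. Of 8 subunits of the chaperonin CCT, which folds alpha and beta tubulin, 6 were tested and 0 passed in either direction (median log2 change -0.08), and TCP1 (0.31) and CCT7 (-0.14) had the largest changes in size. Of 6 prefoldin subunits, which hand tubulin to CCT, 0 passed (median -0.17), with PFDN5 at -0.47 and PFDN4 at 0.24. Of 8 genes listed for tubulin folding, not all of them cofactors that assemble the dimer, 5 were tested and 0 passed (median -0.28). TBCD had -0.62 (edgeR adjusted p = 0.0621) and TBCC -0.30. Over all transcripts in this fit the median was 0.00, with 1.90% called higher and 0.722% called lower.

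Among the 4 genes of tubulin mRNA autoregulation, 0 passed (median -0.22). SCAPER, an adaptor in this decay, had -0.61 and TTC5, which recognises nascent tubulin on the ribosome, had -0.30. Of 10 genes of the gamma tubulin ring complex, 9 were tested and 0 passed (median 0.00), with MZT1 at -0.81 (adjusted p = 0.121) and TUBGCP6 at -0.62. Of 17 genes of tubulin modification, 5 were tested and 0 passed (median -0.09), with the deacetylase HDAC6 at -0.44 and TTLL12 at 0.18.

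Of 20 microtubule-associated proteins, 16 were tested (median -0.17). Of these 1 was called lower, beside 0.722% of all transcripts, and 0 were called higher, beside 1.90%. A single call says little about the list. The gene called lower was DYNLL1, a dynein light chain, with 734 RPKM (Untreated A), 841 (Untreated B) and 514 (G418 A), an edgeR log2 change of -0.69 and an adjusted p of 0.0221. The call was lost with DESeq2 (adjusted p = 0.0922) and in edgeR with a minimum mean of 500 CDS reads (adjusted p = 0.0913), and it held under the other 4 alternatives (adjusted p = 0.0216 to 0.0373). Of 12 other tubulin genes 2 were tested and 0 passed, TUBB4A at -0.69 (edgeR adjusted p = 0.113) and TUBG2 at -0.16.

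The 5 transcripts whose pattern over the 3 libraries lay nearest to that of summed alpha and beta density, among 2407 whose mean was 500 CDS reads or more, were NDRG3, CTNNBL1, TLN1, CHD8 and PTBP1. Their Euclidean distances on the centred log2 scale were 0.0069 for NDRG3 to 0.0156 for PTBP1.

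Readthrough was measured by the ribosome readthrough score (RRTS), the density from the NTC to the next stop codon in frame (3′TC) over the CDS density, given here as a percentage. Where a 3′UTR holds no such codon, as for TUBB4B and the TUBB6 transcript, the region runs to the end of the mRNA. Intervals are exact 95% Poisson intervals of the readthrough reads and cover counting error only.

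TUBA1B, which ends in UAAU, had an RRTS of 3.02% (Untreated A, 1.45 to 5.55, 10 reads), 2.69% (Untreated B, 1.54 to 4.37, 16 reads) and 53.9% (G418 A, 46.8 to 61.8, 208 reads). TUBA1C, which ends in UAAC, had 2.39% (1.03 to 4.72, 8 reads), 0.182% (0.0046 to 1.01, 1 read) and 26.3% (21.4 to 32.1, 97 reads) in the same order. The G418 interval lay far above both untreated intervals for each. TUBA4A, which ends in UAAA, had no readthrough read in any library, which allows an RRTS of up to 42.3% (Untreated A), 37.5% (Untreated B) and 75.3% (G418 A), taking 3 reads as the limit, so its readthrough was not detectable at this depth.

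TUBB, which ends in UAAG, had no readthrough read in Untreated A, which allows up to 0.262%. Its RRTS was 0.381% (0.165 to 0.751, 8 reads) in Untreated B, against 5.84% (4.57 to 7.36, 72 reads) in G418 A. TUBB4B, which ends in UAGA, had none in Untreated A, which allows up to 0.423%, with 0.0817% (Untreated B, 0.0021 to 0.455, 1 read) and 26.3% (G418 A, 22.7 to 30.4, 186 reads) in the other libraries. TUBB, the densest tubulin, thus had the lowest nonzero RRTS in G418 A. TUBB4B went from 1 read in both untreated libraries together to 186.

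TUBB2B, which also ends in UAGA, had 1.59% (Untreated A, 0.0403 to 8.87, 1 read), 2.80% (Untreated B, 0.578 to 8.20, 3 reads) and 24.0% (G418 A, 14.0 to 38.5, 17 reads). TUBB2A, which ends in UAAA, had none in either untreated library and 16.5% (3.40 to 48.3, 3 reads) in G418 A, at the limit that a count of 0 allows. TUBG1, which ends in UGAG, had none in either untreated library, which allows up to 9.20% and 5.46%, and 13.7% (5.04 to 29.9, 6 reads) in G418 A. The TUBB6 transcript had none in any library, which would allow up to 14.5% in G418 A if all its CDS reads came from the short isoform. Reads of the 277 nt shared with the full-length CDS could come from ribosomes that never reach this stop codon. The readthrough of this stop codon is thus not limited by that value.

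**Figure D4:**
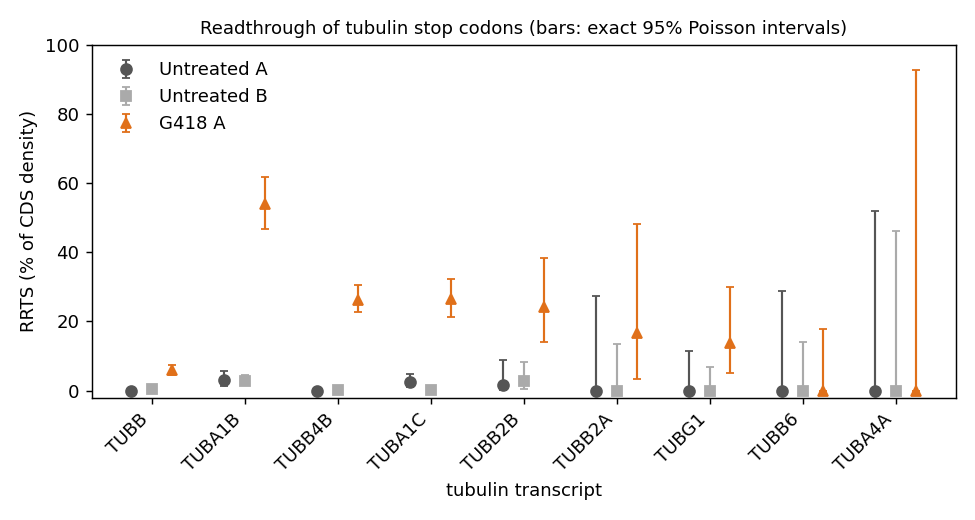
RRTS as a percentage of CDS density (y axis) for the 9 listed tubulin transcripts (x axis, in order of untreated mean CDS density), 1 point per library with exact 95% Poisson intervals of the readthrough reads. The G418 A points of TUBA1B (53.9%), TUBB4B, TUBA1C, TUBB2B and TUBB (5.84%) stand clear of the untreated intervals, and those of TUBB2A, TUBG1, TUBB6 and TUBA4A have intervals that overlap untreated ones.

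Against the reads of both untreated libraries pooled, the RRTS of G418 A was 19.2-fold higher for TUBA1B (95% counting interval 12.7 to 30.1), 25.9-fold for TUBA1C (13.1 to 58.3) and 23.7-fold for TUBB (11.4 to 56.9). It was 10.2-fold higher for TUBB2B (3.33 to 41.7). The ratio was 509 for TUBB4B, with an interval from 90.2 to 20203 because the untreated value rests on 1 read. No fold is given for TUBG1, with 6 reads in G418 A and none in the untreated libraries. Its G418 interval overlaps that of each untreated library taken alone.

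An RRTS above both untreated libraries was found for 7 of 9 members, beside 72.0% of all transcripts. An RRTS above 0 in G418 A was found for 7 of 9, beside 75.8%. In the untreated libraries 5 of 9 members had an RRTS above 0 in at least 1 library, beside 34.8% of all transcripts. Above 0 in both were 3 of 9, beside 11.6%. A score above 0 also depends on read depth, which was not matched between the members and all transcripts.

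Transcripts with the same stop codon and next nucleotide give a measure of what each signal showed elsewhere. The TUBA1B value of 53.9% in G418 A was above 86.8% of the other UAAU transcripts, whose median with TUBA1B included was 11.6% (304 transcripts). TUBA1C, at 26.3%, was above 58.9% of the other UAAC transcripts (median 18.4%, 327 transcripts). TUBB, at 5.84%, was above 50.6% of the other UAAG transcripts (median 5.73%, 412 transcripts). TUBA1B therefore stood high for its signal and TUBB near the middle.

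TUBB4B and TUBB2B, at 26.3% and 24.0%, were above 62.9% and 61.1% of the other UAGA transcripts (median 17.8%, 351 transcripts). TUBG1, at 13.7%, was above 39.4% of the other UGAG transcripts (median 19.9%, 1054 transcripts). TUBB2A, at 16.5% from 3 reads, shares with TUBA4A the UAAA signal, whose median was 7.69% (662 transcripts). The CDS density below each of these scores could include reads of another copy or lack reads credited to one, most of all for TUBA1B. The former would lower a score and the latter would raise it, and the part either plays in the ranks was not tested. TUBB could also lack readthrough reads credited to TUBBP1, with which it shared 58.7% of the windows there. This was not tested either.

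Pooled over members, as readthrough reads over the reads that each CDS density would give in the same region, the RRTS was 0.717% (Untreated A, 0.432 to 1.12), 0.618% (Untreated B, 0.414 to 0.888) and 20.7% (G418 A, 19.0 to 22.4). Over all 5680 transcripts it was 1.57%, 1.25% and 21.3%. The pooled value was thus below that of all transcripts in both untreated libraries and close to it in G418 A. In G418 A it depended on the members pooled, at 32.0% without TUBB and 15.5% without TUBA1B. The fold over the untreated mean was 30.9 for the members and 15.2 for all transcripts, and the median of the members' RRTS in place of the pooled value gave a fold of 404, since the untreated median is close to 0.

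The pooled alpha RRTS was 2.68% (Untreated A, 1.59 to 4.23), 1.48% (Untreated B, 0.859 to 2.36) and 40.2% (G418 A, 35.8 to 45.02). The pooled beta RRTS was 0.0515% (0.0013 to 0.287, 1 read), 0.345% (0.178 to 0.602, 12 reads) and 13.6% (12.02 to 15.3, 278 reads) in that order. The alpha interval lay above the beta interval in each library. The alpha value rests on TUBA1B and TUBA1C, and without TUBA1B it was 26.1% in G418 A, while the beta value without TUBB was 25.2%.

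The fold over the untreated mean was 19.4 for alpha and 68.5 for beta. The beta fold was 24.1 without TUBB4B, its member with the most readthrough reads, and 122 without TUBB, and the alpha fold was 20.6 without TUBA1B. The beta fold also depended on which untreated library was used, since the pair differed by 6.70-fold. It was 39.4 without Untreated A and 264 without Untreated B, and the alpha fold was 27.3 and 15.04.

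**Figure D5:**
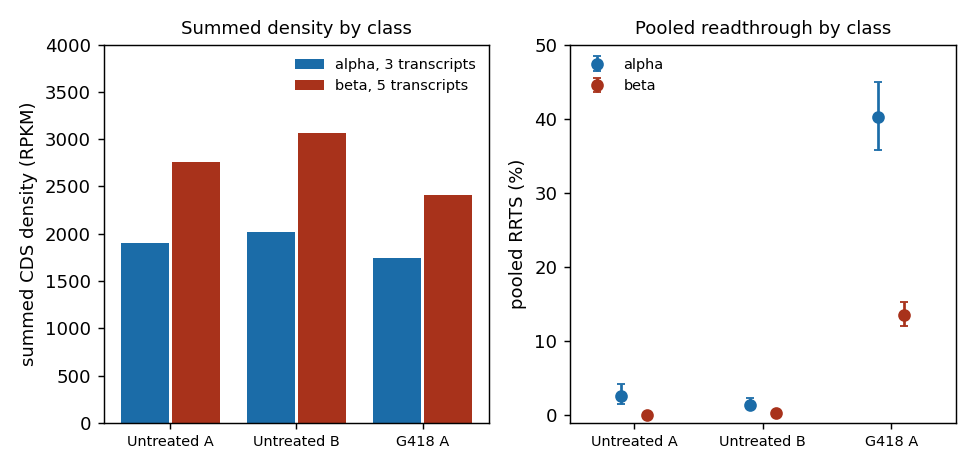
Left, summed CDS density in RPKM (y axis) of the 3 alpha and 5 beta transcripts for every library. Right, pooled RRTS in percent (y axis) of each class, with exact 95% Poisson intervals, where alpha reached 40.2% and beta 13.6% in G418 A.

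Reads past the 3′TC were counted in the 7 members with an in-frame 3′UTR stop codon. Pooled over them, the density there in G418 A was 0.0710 times that between NTC and 3′TC, beside 0.0393 for all 5438 transcripts with such a codon. TUBA1C had 26 reads over 1301 nt past its 3′TC and 97 reads over 69 nt before it, a density ratio of 0.0142 (95% counting interval 0.0088 to 0.0221). TUBB had 28 reads over 893 nt and 72 over 126 nt, a ratio of 0.0549 (0.0341 to 0.0860). In both transcripts reads were few past the 3′TC.

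TUBA1B had 130 reads over 116 nt past its 3′TC and 208 over 54 nt before it, a higher ratio of 0.291 (0.232 to 0.364). Each ratio averages over all of the 3′UTR past the 3′TC, which can hold further in-frame stop codons. The whole 3′UTR holds 3 in-frame stop codons in TUBA1B, 19 in TUBA1C and 11 in TUBB. The part that these and the unlike lengths play in the difference was not tested. TUBB2B had 22 reads over 402 nt and 17 over 66 nt, a ratio of 0.212 (0.108 to 0.426). TUBG1 had more reads after its 3′TC, 26 over 137 nt, than before it, 6 over 54 nt, a ratio of 1.71 (0.688 to 5.07) whose interval includes 1. In the untreated libraries TUBG1 had 1 read past the 3′TC in each, whereas TUBB2A had 13 in Untreated B and 0 in the other libraries.

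The share of tubulin RPFs in the whole 3′UTR was 0.0840% (Untreated A, Wilson 95% interval 0.0592 to 0.119), 0.0965% (Untreated B, 0.0755 to 0.123) and 1.97% (G418 A, 1.84 to 2.11). Over all transcripts listed in the 3 tables it was 0.389%, 0.334% and 2.55%. For the tubulins the G418 share was 21.8 times the untreated mean of 0.0902% ± 0.0089 (SD, n = 2), and for all transcripts 7.06 times. TUBA1B reached 3.45% of its RPFs in G418 A, TUBG1 2.90%, TUBB4B 2.72%, TUBB2B 2.66%, TUBA1C 1.72% and TUBB 0.714%. TUBB2A went the other way from Untreated B, with 0.874% there, 0.303% in G418 A and no read in Untreated A, and TUBA4A and TUBB6 had no 3′UTR read in any library.

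The 5′UTR share was uneven between isotypes. TUBB had 5.31% (Untreated A), 4.94% (Untreated B) and 8.37% (G418 A, Wilson 95% interval 7.93 to 8.84) of its RPFs in the 5′UTR. TUBA1B had 0.659%, 1.49% and 0.173% (0.108 to 0.278) in the same order, and TUBA1C had 0.359%, 0.672% and 0.154%. TUBB4B had 0.552%, 0.631% and 0.205% (0.122 to 0.344). TUBB was thus above both untreated libraries in G418 A while TUBA1B, TUBA1C and TUBB4B were below both, and over all listed transcripts the share was 2.35%, 2.45% and 2.15%.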

How the data were processed

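RPFs were sequenced from 3 HEK293T libraries. According to the study's methods, the authors collapsed duplicates by molecular identifiers, discarded noncoding RNA, aligned reads with STAR to hg38 with GENCODE 30, kept 1 alignment per read and assigned fragments of 28 to 35 nt to A sites on 1 transcript per gene. The authors deposited RPM values by region, RPKM densities, whole-number counts and a ratio, the RRTS. CDS densities leave out the first 18 and last 15 nt and the RRTS the first 6 nt after the NTC. All RPM values were whole multiples of 1 read (100% within 0.01 reads), and these recovered reads were used for descriptions. Deposited CDS counts, 1 read lower for 9080 of 9099 transcripts in Untreated A (283 of 9311 in Untreated B, 72 of 9370 in G418 A), were used for edgeR. Untreated A and B were compared with G418 A.

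The edgeR test (4.0.16, R 4.3.3) used TMM, and DESeq2 1.42.0 was an alternative. It was checked on simulated counts. Sequences, windows and coordinates came from GENCODE 44 on hg38, with A-site windows placed 16 nt from the fragment's start. Stop signals and CDS lengths matched the tables for all 9 transcripts. Nucleotide identity replaced the planned protein identity, as no protein table was used here. The text names each member, the 2 genes of each pathway list with the largest edgeR change in size, and the 5 nearest patterns. A sequence and a gene that these rules would name are not reported here. Members and lists were chosen with earlier results of these data known. Alternatives comprised other scalings, filters, count columns, pools of members and leaving out each untreated library. No column of another sample was used.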

Additional observations from a re-analysis of the deposited data

How the results depend on the processing

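No member was called by edgeR or DESeq2 under any of the 6 alternatives run. Over all transcripts the number called higher was 173 on the authors' RPM scale, 10 with DESeq2 and 22 with a minimum mean of 500 CDS reads, against 108, and the number called lower was 17 with DESeq2 and 12 with at least 500 reads, against 41. TUBG1 turned sign without a filter on low counts (log2 change -0.0099). DESeq2 gave TUBA4A and TUBB6 no adjusted p, and the minimum mean of 500 CDS reads left both out, so neither could be called there. For the pooled RRTS, leaving out the member with the most readthrough reads (TUBA1B) gave 0.353% untreated, 15.5% in G418 A and a fold of 43.8 over all members and 26.1% for alpha in G418 A, and leaving out TUBB4B gave 6.85% for beta. The median of the deposited RRTS gave 0.0409% untreated, 16.5% in G418 A and a fold of 404 over all members and for beta, and 26.3% for alpha in G418 A. Leaving out TUBB, chosen after seeing the data, gave 1.04% untreated and 32.0% in G418 A over all members and 25.2% for beta. The beta fold ranged from 39.4 to 264 without 1 untreated library. The 3′UTR share of untreated tubulin RPFs was 0.0638% without TUBA1B. The alpha to beta density ratio moved by less than its spread without TUBA1B and TUBB, the members of each class with the most CDS reads (fold 1.05, against 1.07). It also did with other listed tubulins added, which was chosen after seeing the data (fold 1.08). Leaving out an untreated library could not move this ratio further, because its untreated spread is that between the same libraries. Keeping only members listed in each table changed nothing, since every member counted was in all of them. The causes were not tested. Leaving out an untreated library left edgeR no residual degrees of freedom, so it was not run there. No paired analysis was possible because G418 had 1 library. Few readthrough reads limit TUBA4A, TUBB6, TUBB2A and TUBG1.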
